A study of Mus musculus with 7 samples.

Results

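Glycolysis and glycogen metabolism were followed through 37 named genes in overloaded and sham operated mouse plantaris, a fast calf muscle. The genes were chosen by name, from the transporters and enzymes that bring glucose into the fibre, split it to lactate, store it as glycogen and release it again. On the arrays 33 of the 37 could be fitted, out of 18193 genes measured. Gapdh was read through control probe sets and is given as values alone, and Eno1, Gpi1 and Pfkfb1 were not analysed here. Each gene is represented by its brightest probe set over the 7 arrays.

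All mice were Pax7-DTA animals (Pax7-CreER; Rosa26-DTA) aged 4 months, so every group carried both alleles. Tamoxifen activates the Cre made in Pax7-expressing cells and so switches on diphtheria toxin A in muscle stem cells (satellite cells), while vehicle leaves these cells in place. Overload came from synergist ablation, in which the neighbouring calf muscles that normally take most of the load are removed, and lasted 1 week. The groups were tamoxifen overload (3 arrays, of 2 males and 1 female), vehicle overload (2 arrays, 1 female and 1 male), tamoxifen sham (1 array, male) and vehicle sham (1 array, male). The design text speaks of pooled right and left muscles and of 11 animals, while the titles read as single mice, so p-values measure the spread between these arrays. Tamoxifen itself and the loss of the cells cannot be told apart, since no mouse without the toxin allele was among the groups.

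Muscle fibres burn glucose and glycogen through a chain of enzymes, several of which exist in forms encoded by different genes. Fast fibres are rich in muscle forms such as muscle phosphofructokinase, phosphoglycerate mutase 2 and muscle glycogen phosphorylase. Most other cells, among them macrophages, fibroblasts and dividing myoblasts, use the widely expressed forms. Glycogen phosphorylase kinase switches glycogen breakdown on when calcium rises during contraction, and a regulatory sugar phosphate, fructose-2,6-bisphosphate, sets the pace of phosphofructokinase.

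Sequence windows at the starts of 4 genes are shown because they put a muscle form beside its widely expressed partner (Pgam2 and Pgam1) and beside 2 further genes that fell on overload (Phkg1 and Hk2). Each is a stretch of 250 bases, 5′ to 3′ on the gene's own strand, from RefSeq on build GRCm38.p6. For Pgam2, Pgam1 and Hk2 it ends just before the annotated start of the gene. The Phkg1 window runs past that start, at chr5:129879134. Its last bases, with the last E-box marked in it, thus lie inside the annotated gene. The windows are chr11:5803797-5804046 (minus strand) for Pgam2, chr19:41911621-41911870 (plus strand) for Pgam1, chr5:129879089-129879338 (minus strand) for Phkg1 and chr6:82774455-82774704 (minus strand) for Hk2. Capitals mark E-boxes, CANNTG, the letters bound by myogenic and other basic helix-loop-helix factors, which read the same on both strands.
Pgam2: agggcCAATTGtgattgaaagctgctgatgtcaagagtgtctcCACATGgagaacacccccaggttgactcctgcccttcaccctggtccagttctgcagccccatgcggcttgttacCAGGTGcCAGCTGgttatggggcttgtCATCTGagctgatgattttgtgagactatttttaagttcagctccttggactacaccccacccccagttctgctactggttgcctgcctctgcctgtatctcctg
Pgam1: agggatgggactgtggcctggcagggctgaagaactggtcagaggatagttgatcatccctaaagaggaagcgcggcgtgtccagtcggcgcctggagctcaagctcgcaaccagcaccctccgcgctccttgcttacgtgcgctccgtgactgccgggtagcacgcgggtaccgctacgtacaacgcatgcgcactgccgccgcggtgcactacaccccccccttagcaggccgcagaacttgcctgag
Phkg1: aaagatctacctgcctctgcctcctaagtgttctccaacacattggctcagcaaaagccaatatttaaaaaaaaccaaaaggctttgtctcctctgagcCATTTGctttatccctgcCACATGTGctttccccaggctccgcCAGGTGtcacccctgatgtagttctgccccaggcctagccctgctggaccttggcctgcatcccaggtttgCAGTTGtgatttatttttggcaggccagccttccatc
Hk2: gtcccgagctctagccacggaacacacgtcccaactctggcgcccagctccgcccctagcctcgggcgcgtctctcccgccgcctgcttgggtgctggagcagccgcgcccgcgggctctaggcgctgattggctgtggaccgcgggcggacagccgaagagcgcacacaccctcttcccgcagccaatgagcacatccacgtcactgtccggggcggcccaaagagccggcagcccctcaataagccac

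Pgam2 and Phkg1 each hold 5 E-boxes in this window (in Phkg1 a pair overlaps), and Pgam1 and Hk2 hold 0. At least 5 were reached by 1.15% of the 32851 windows in the RefSeq table and by 2 of 54 windows of the named genes (3.7%). Both of these 2 are shown here, so they do not stand for the muscle forms, of whose 21 windows 2 reached that number. Pgam2 also has 1 match to the MEF2 site, found in 2.92% of all windows. CG pairs number 1 in Pgam2 and 1 in Phkg1, 22 in Pgam1 and 25 in Hk2, so Hk2 differs from the other muscle forms shown. For 35 of the 37 genes the table held a window. At least 1 E-box lay in 19 of 21 windows of the muscle forms (12 genes) and in 8 of 18 windows of the other forms (11 genes), against 66.2% of all windows. These matches describe letters, and binding was not measured.

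On the arrays as a whole, the median signal lay between 88.2 and 127.7, and 31 of the 33 genes were above the background level (a signal of 54.8) on all 7 arrays. The exceptions were Aldoc, above it on 4 arrays, and Ppp1r3a, on 6. Pax7, the gene that drives the Cre, had signals of 57.9, 9.97 and 120 on the tamoxifen overload arrays and 274 and 349 on the vehicle overload arrays, against 41.2 on the tamoxifen sham and 92.8 on the vehicle sham array. It was lower on all 3 tamoxifen overload arrays than on both vehicle overload arrays, though the log2 difference of -2.67 did not pass.

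Overload against sham, averaged over both treatments, lowered most of the pathway. By limma (adjusted p under 0.05 over all 18193 genes) 19 of the 33 genes fell and 3 rose, against 8.16% of all genes lower and 14.7% higher (22.9% in either direction). The median log2 difference over the 33 was -0.67, and over all genes 0.07. All 5 overload arrays lay below both sham arrays for 23 of the genes and above both for 3, which holds for 18.3% and 23.1% of all genes. The fall was at least 2-fold for 10 genes, among them Pfkfb3, Gpd1, Fbp2, Ldhb and the kinase subunits Phkg1 and Phka1. The 3 that rose, Hk1, Pgam1 and Pfkp, are all widely expressed forms. The calls rest on a spread with 2 residual degrees of freedom: without its trend along intensity limma called 0 of the 33, although 22 had an unadjusted p under 0.05. The loss was general, since 0 of all 18193 genes were then called, with 5234 at an unadjusted p under 0.05. Without tamoxifen overload replicate 3 the falls numbered 12, while lower calls among all 18193 genes went from 1485 to 1184. They were also fewer without vehicle overload replicate 2, among the 33 (median -0.60) and among all genes.

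**Figure D1:**
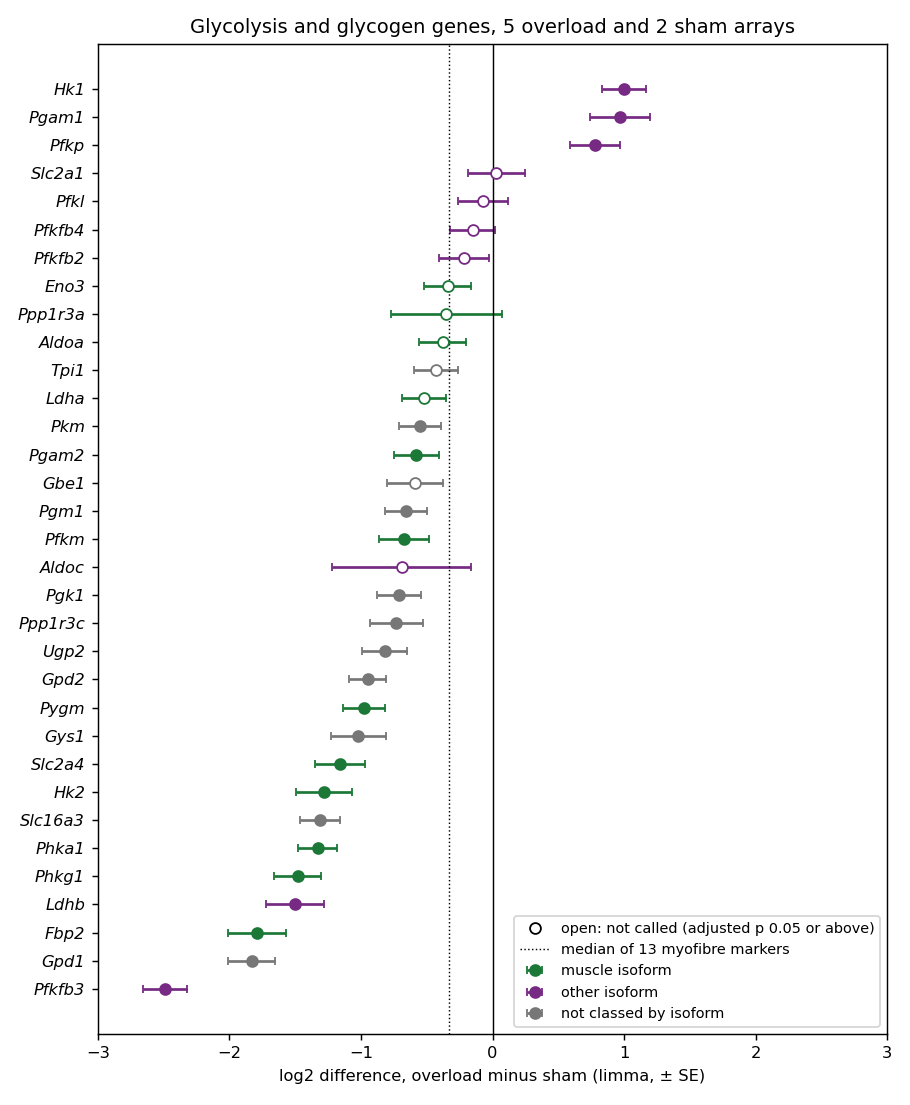
Log2 difference between overload and sham (x axis, limma estimate ± SE) for the 33 fitted genes, filled where the adjusted p was under 0.05, coloured by isoform class. The 19 genes that fell reach from -0.55 for Pkm to -2.49 for Pfkfb3, the 3 that rose are purple, and the dotted line is the median of the myofibre markers at -0.33.

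Markers of other cells moved in the same comparison. Of 14 macrophage markers 13 rose, with summed signals of 31294 to 50463 on the overload arrays against 6837 to 12021 on the sham arrays. Of 10 fibroblast markers 9 rose (128626 to 159694 against 44884 to 57132), and all 5 measured proliferation genes of 6 listed rose (1307 to 3283 against 68 to 160). For the 13 myofibre markers every estimate was negative (median -0.33) and none was called, and their signals summed to 331049 to 423382 on the overload arrays against 475266 to 499650 on the sham arrays. In whole muscle, a smaller share of fibres in the tissue and less RNA of a gene per fibre cannot be told apart. When each array was centred on the mean of the 13 myofibre markers, a setting chosen after seeing the data, 16 genes still fell and 3 rose, with a median of -0.34. Of all 18193 genes 602 then fell and 3883 rose, with a median of 0.40. Among the remaining lists, 2 of 3 measured neutrophil markers and 1 of 6 satellite cell markers rose, 3 of 4 adipocyte and 1 of 2 erythrocyte markers fell, and of 6 endothelial markers 1 rose and 1 fell. Apart from the globin gene Hba-a1, each measured marker was above background on at least 1 array. The part of these cells in the results below was not tested.

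Glucose entry and its first phosphorylation fell in their muscle forms. Slc2a4 encodes GLUT4, the transporter that insulin and contraction bring to the fibre surface. Its signals were 5882, 4058 and 5477 on the tamoxifen overload arrays and 7818 and 5447 on the vehicle overload arrays, against 11852 on the tamoxifen sham and 11592 on the vehicle sham array. Every overload array was below both sham arrays, and the log2 difference was -1.16 ± 0.19 (SE, limma adjusted p = 0.00454). Slc2a1, the transporter GLUT1 of most other cells, had 1040, 869 and 788 with tamoxifen overload and 1006 and 643 with vehicle overload, against 771 and 832 in tamoxifen and vehicle sham muscle. These values overlap, and the difference of 0.03 ± 0.22 did not pass. Its other probe sets gave -0.24 and -0.32, which did not pass.

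Hexokinase, which traps glucose as glucose-6-phosphate, changed in opposite directions by form. Hk2, the form of insulin-responsive muscle, had 6752, 4326 and 5799 in tamoxifen overload and 7467 and 5674 in vehicle overload, against 12691 in tamoxifen sham and 14687 in vehicle sham muscle. It fell by 1.28 ± 0.21 on the log2 scale (adjusted p = 0.00404, limma). Hk1, the widely expressed form, had 832, 1066 and 943 in tamoxifen overload and 861 and 934 in vehicle overload, against 584 and 370 in tamoxifen and vehicle sham muscle. It rose 2.0-fold (log2 1.00 ± 0.17, limma adjusted p = 0.0049), and no overload array overlapped a sham array for either gene. Without vehicle overload replicate 2 the calls of Slc2a4 (-1.01) and Hk2 (-1.15) were lost, with adjusted p = 0.0647 and 0.0506.

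Phosphofructokinase commits sugar to glycolysis. Pfkm, the muscle subunit, read 22287, 16500 and 21089 in tamoxifen overload and 24012 and 24165 in vehicle overload, against 32675 in tamoxifen sham and 35243 in vehicle sham muscle. The 5 overload arrays were all lower, by 0.67 ± 0.19 in log2 (limma adjusted p = 0.039). Pfkp, the platelet-type subunit of many cell types, read 554, 621 and 570 in tamoxifen overload and 488 and 367 in vehicle overload, against 334 and 226 in tamoxifen and vehicle sham muscle, a rise of 0.78 ± 0.19 (adjusted p = 0.023). The liver-type subunit Pfkl read 490, 449 and 424 in tamoxifen overload and 458 and 369 in vehicle overload, against 453 and 438 in tamoxifen and vehicle sham muscle, with overlapping groups (-0.07 ± 0.19). Pfkm lost its call when tamoxifen overload replicate 3 (-0.66) or vehicle overload replicate 1 (-0.66) or 2 (-0.73) was left out. Pfkp lost its own when replicate 2 of tamoxifen overload (0.71) or of vehicle overload (0.98) was left out, and after median centring (0.49).

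The largest fall of the 33 was in Pfkfb3. It encodes a bifunctional enzyme that mainly makes fructose-2,6-bisphosphate, the activator of phosphofructokinase. Signals were 424, 511 and 397 in tamoxifen overload and 308 and 417 in vehicle overload, against 2183 in tamoxifen sham and 2753 in vehicle sham muscle. The gene was 5.61-fold lower in overloaded muscle (log2 -2.49 ± 0.17, limma adjusted p = 0.000124), and its other probe set fell as well (-1.89). The related Pfkfb2 (-0.22 ± 0.19) and Pfkfb4 (-0.15 ± 0.17) had overlapping groups and did not pass. Among the 10 fitted widely expressed or non-muscle forms Pfkfb3 fell most, and only 1 other, the heart-type Ldhb, was called lower.

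**Figure D2:**
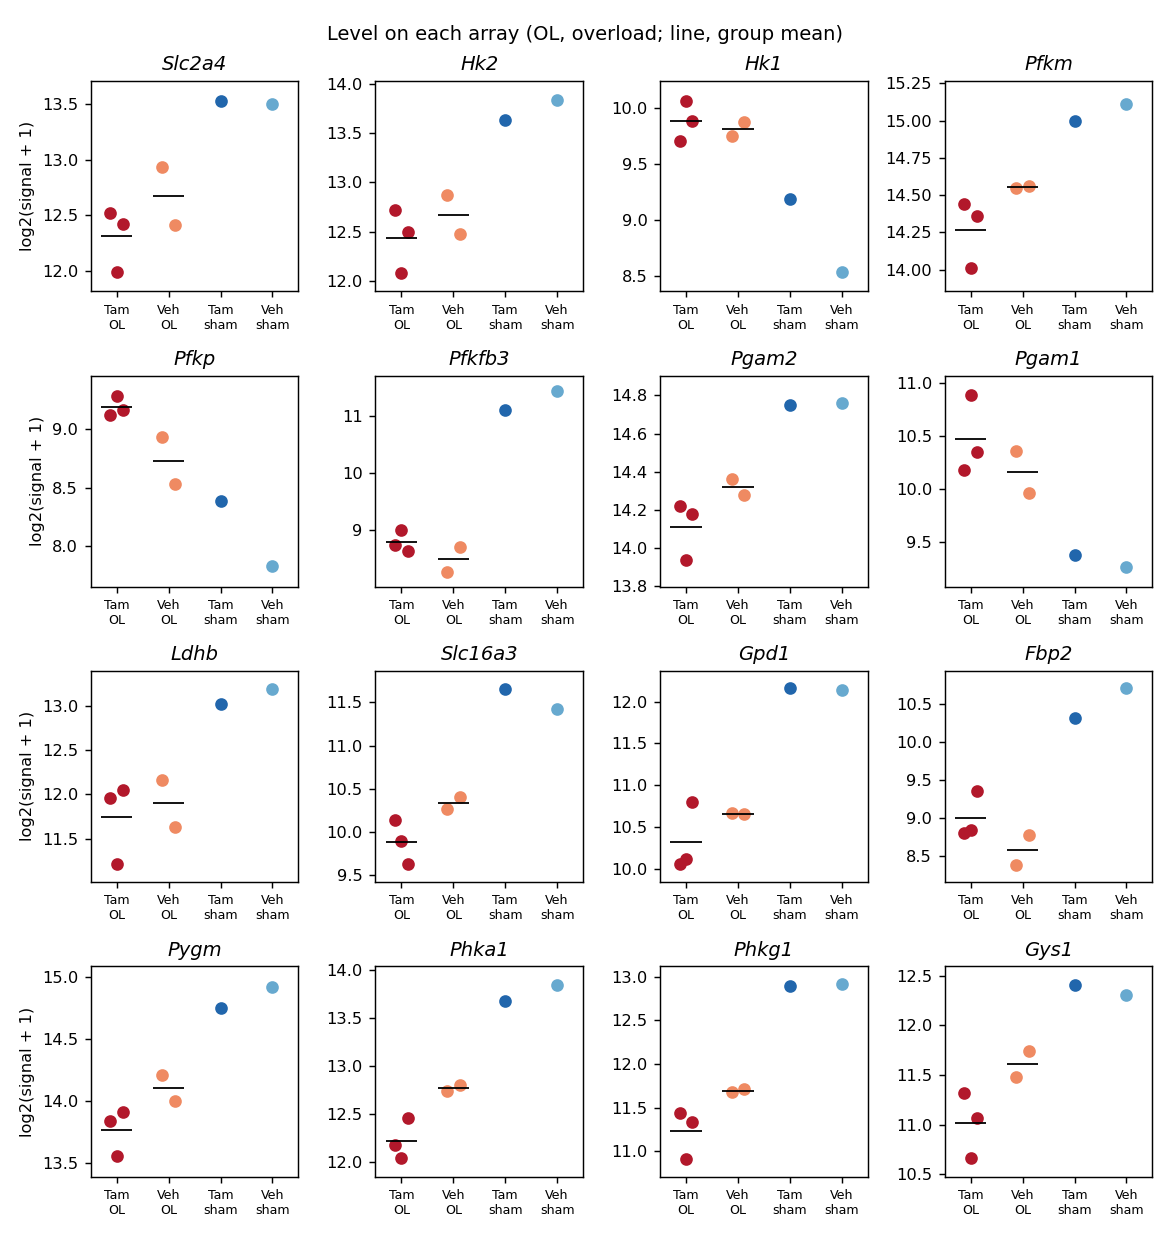
Level of 16 genes on each array, as log2(signal + 1) with its own axis range per gene; columns are tamoxifen overload (3 arrays), vehicle overload (2), tamoxifen sham (1) and vehicle sham (1), with a line at the group mean. Hk1, Pfkp and Pgam1 are higher on all 5 overload arrays than on both sham arrays, and the other 13 genes shown are lower.

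In the middle and lower chain several enzymes did not pass. Aldoa (aldolase A, -0.38 ± 0.18), Tpi1 (triosephosphate isomerase, -0.43 ± 0.17), Eno3 (the muscle enolase, -0.34 ± 0.18) and Ldha (the muscle lactate dehydrogenase subunit, -0.52 ± 0.17) did not pass, though all overload arrays were below both sham arrays for each. The differences of Aldoa, Tpi1 and Eno3 are close to the -0.33 of the myofibre markers, and relative to these Ldha stood at -0.19. Ldha passed in 4 of 14 alternative settings and Tpi1 in 2, so whether they are called depends on the setting. Ldha had signals of 23028, 20084 and 23199 in tamoxifen overload and 25180 and 25982 in vehicle overload, against 31776 and 35709 in tamoxifen and vehicle sham muscle. Aldoc, the brain-type aldolase, was near background and did not pass (-0.69 ± 0.53), with 35.3, 69.1 and 37.8 in tamoxifen overload and 67.4 and 35.1 in vehicle overload, against 85.9 and 61.1 in tamoxifen and vehicle sham muscle. Signals of Aldoa were 34238, 27575 and 32969 in tamoxifen overload and 36008 and 34761 in vehicle overload, against 40733 and 44316 in tamoxifen and vehicle sham muscle. Aldoa was read by a probe set of the _x_at type, which can share sequence with other transcripts, and its dimmest probe set, also _x_at, fell by 0.68 (adjusted p = 0.024). Gapdh, on the control probe set for the middle of its transcript, had log2 levels of 14.891, 14.653 and 14.803 in tamoxifen overload and 14.941 and 14.999 in vehicle overload, against 15.175 and 15.293 in tamoxifen and vehicle sham muscle. It was thus lowest on tamoxifen overload replicate 2, which had the lowest value of the 5 overload arrays for 21 of the 33 fitted genes.

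Pgk1 (phosphoglycerate kinase), Pkm (pyruvate kinase of muscle) and Pgam2 (the muscle phosphoglycerate mutase) fell modestly. For Pkm the signals were 13456, 11097 and 11690 in tamoxifen overload and 13597 and 14307 in vehicle overload, against 18555 and 20062 in tamoxifen and vehicle sham muscle (log2 difference -0.55 ± 0.16, limma adjusted p = 0.0421). Pgk1 stood at -0.71 ± 0.17 (adjusted p = 0.0184). Its 2 other probe sets, -0.50 and -0.19, did not pass. Pgam2 had 19144, 15713 and 18535 in tamoxifen overload and 20988 and 19934 in vehicle overload, against 27632 and 27763 in tamoxifen and vehicle sham muscle, a fall of 0.58 ± 0.17 (adjusted p = 0.0424). Its partner Pgam1, the form of most tissues, had 1157, 1878 and 1301 in tamoxifen overload and 1312 and 997 in vehicle overload, against 663 and 614 in tamoxifen and vehicle sham muscle. Pgam1 was 1.95-fold higher (log2 0.97 ± 0.23, adjusted p = 0.0216), with no overlap between the groups, and lost its call after median centring (0.68). Pgk1, Pkm and Pgam2 lost theirs when tamoxifen overload replicate 3 was left out (-0.69, -0.55 and -0.57), and likewise vehicle overload replicate 1 (-0.69, -0.55 and -0.57) or 2 (-0.85, -0.55 and -0.59). Pkm (-0.22) and Pgam2 (-0.25) also lost them relative to the myofibre markers.

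At the lactate end, the heart-type dehydrogenase subunit and the export carrier fell more than Ldha. Ldhb, which favours lactate use in oxidative tissue, had 3995, 2365 and 4229 in tamoxifen overload and 4615 and 3171 in vehicle overload, against 8341 in tamoxifen sham and 9393 in vehicle sham muscle. It was 2.82-fold lower (log2 -1.50 ± 0.22, limma adjusted p = 0.00259), and its 3 other probe sets fell by 1.49 to 1.81. Slc16a3 encodes MCT4, the lactate exporter of fast fibres. It had 1126, 956 and 790 in tamoxifen overload and 1233 and 1362 in vehicle overload, against 3237 and 2761 in tamoxifen and vehicle sham muscle (-1.31 ± 0.15, adjusted p = 0.000977). Both genes separated the overload from the sham arrays completely.

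The glycerol phosphate branch at the triose level fell, and so did the muscle fructose bisphosphatase. Gpd1 encodes the cytosolic glycerol-3-phosphate dehydrogenase, which passes reducing power to the mitochondrial enzyme encoded by Gpd2. Gpd1 had signals of 1056, 1114 and 1780 in tamoxifen overload and 1625 and 1602 in vehicle overload, against 4565 in tamoxifen sham and 4498 in vehicle sham muscle. It was 3.56-fold lower (log2 -1.83 ± 0.18, limma adjusted p = 0.000513). Gpd2 had 2050, 1770 and 2128 in tamoxifen overload and 2516 and 2493 in vehicle overload, against 3704 and 4717 in tamoxifen and vehicle sham muscle (-0.95 ± 0.14, adjusted p = 0.00255). A nearly as bright second probe set of Gpd2 fell by 1.78, and its 2 dim ones (-0.60 and -0.58) did not pass, so the size of its fall differs between probe sets. Fbp2, the muscle fructose bisphosphatase that runs the phosphofructokinase step backwards, had 444, 461 and 657 in tamoxifen overload and 332 and 439 in vehicle overload, against 1277 and 1691 in tamoxifen and vehicle sham muscle. Its fall was 3.45-fold (-1.79 ± 0.22, adjusted p = 0.00143).

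All 3 named genes of glycogen breakdown, each a muscle form, fell, against 8.16% of all genes lower. This does not hold for every gene of the step. Their partners Pygb, Phka2 and Phkg2, given below, had positive differences, while Phkb fell. Pygm, muscle glycogen phosphorylase, cuts glucose units from glycogen. Its signals were 14682, 12069 and 15354 in tamoxifen overload and 18945 and 16384 in vehicle overload, against 27536 and 30966 in tamoxifen and vehicle sham muscle (-0.98 ± 0.16, limma adjusted p = 0.00477). Without vehicle overload replicate 2 Pygm did not pass, at -0.98 with adjusted p = 0.0957. The kinase that activates it fell further. Phka1, its muscle regulatory subunit, had 4630, 4200 and 5616 in tamoxifen overload and 6845 and 7152 in vehicle overload, against 13088 and 14721 in tamoxifen and vehicle sham muscle (-1.33 ± 0.15, adjusted p = 0.00105). Phkg1, the muscle catalytic subunit whose sequence window is shown above, had 2782, 1930 and 2595 in tamoxifen overload and 3281 and 3355 in vehicle overload, against 7615 and 7747 in tamoxifen and vehicle sham muscle (-1.48 ± 0.18, adjusted p = 0.00124). No overload array reached a sham array for any of the 3. Relative to the myofibre markers they stood at -0.65 (Pygm) to -1.15 (Phkg1), and all 3 passed.

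Glycogen synthesis fell in 3 of the 4 named genes, against 8.16% of all genes lower. Gys1 encodes the glycogen synthase of muscle. It had 2547, 1614 and 2145 in tamoxifen overload and 2862 and 3421 in vehicle overload, against 5445 in tamoxifen sham and 5063 in vehicle sham muscle (-1.02 ± 0.21, limma adjusted p = 0.0104). Ugp2, which makes the UDP-glucose that the synthase uses, stood at -0.82 ± 0.17 (adjusted p = 0.0117). Its 4 other probe sets also fell, by 0.60 to 1.47. Pgm1, phosphoglucomutase, which links glycogen to glycolysis, stood at -0.66 ± 0.16 (adjusted p = 0.0211), and the branching enzyme gene Gbe1, at -0.59 ± 0.21 (adjusted p = 0.077), did not pass. Ugp2 lost its call when tamoxifen overload replicate 3 (-0.83) or vehicle overload replicate 1 (-0.83) or 2 (-0.82) was left out, and Pgm1 lost its call in the same cases (-0.65, -0.65 and -0.73). Gbe1 passed without tamoxifen overload replicate 1 (-0.77).

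Of the subunits that bring protein phosphatase 1 to glycogen, Ppp1r3c fell by 0.73 ± 0.20 (limma adjusted p = 0.0366) and Ppp1r3a, at -0.35 ± 0.42, did not pass. Ppp1r3c was the single one of the 19 falls and 3 rises among the 33 genes whose groups overlapped, with 12840, 10250 and 11964 in tamoxifen overload and 20378 and 12048 in vehicle overload, against 25543 in tamoxifen sham and 16036 in vehicle sham muscle. The female vehicle overload array lay above the vehicle sham array. The call was lost when tamoxifen overload replicate 2 (-0.70) or 3 (-0.78) or vehicle overload replicate 2 (-0.43) was left out, without the sex term (-0.58), and relative to the myofibre markers (-0.40).

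The muscle forms were next set against their partners within each array, which removes the scaling of the array. This was possible for 10 of 11 pairs. The log2 ratio of muscle form to partner was lower on all 5 overload arrays than on both sham arrays for 8 pairs and higher for 1, and overlapped for 1. For Hk2 over Hk1 it was 3.02, 2.02 and 2.62 in tamoxifen overload and 3.12 and 2.60 in vehicle overload, against 4.44 in tamoxifen sham and 5.31 in vehicle sham muscle, a mean difference of -2.20. The probe sets differ in brightness, so only the change in a ratio can be read, not its level.

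The ratio Pgam2 over Pgam1 averaged 3.85 ± 0.47 on the overload arrays (SD, n = 5), against 5.38 and 5.50 on the tamoxifen and vehicle sham arrays. Its mean difference was -1.59. Pfkm over Pfkp differed by -1.56, Pfkm over Pfkl by -0.63 and Slc2a4 over Slc2a1 by -1.16. The glycogen genes gave -1.93 for Phkg1 over Phkg2, -1.72 for Phka1 over Phka2 and -1.71 for Pygm over Pygb, where the partners are the liver-type kinase subunits and the brain-type phosphorylase. For Phkg1 over Phkg2 the log2 ratio was 2.28, 1.96 and 2.34 in tamoxifen overload and 2.73 and 2.53 in vehicle overload, against 4.46 and 4.14 in tamoxifen and vehicle sham muscle. The partner Phkg2 itself had signals of 572, 495 and 511 in tamoxifen overload and 493 and 579 in vehicle overload, against 346 and 440 in tamoxifen and vehicle sham muscle (0.50 ± 0.18). Phka2 had 709, 733 and 842 in tamoxifen overload and 580 and 786 in vehicle overload, against 535 and 560 in tamoxifen and vehicle sham muscle (0.41 ± 0.19). Phka2 and Phkg2 were higher on all 5 overload arrays than on both sham arrays but did not pass (limma adjusted p = 0.171 and 0.0807). Pygb, which rose by 0.70 ± 0.21, had 532, 711 and 684 in tamoxifen overload and 315 and 369 in vehicle overload, against 340 and 244 in tamoxifen and vehicle sham muscle. Its overload and sham arrays overlapped, with vehicle overload near tamoxifen sham. Ldha over Ldhb ran the other way, at 0.78, since Ldhb fell more. Aldoa over Aldoc overlapped between the groups (0.26). With 5 against 2 arrays the smallest two-sided p of an exact permutation test is 0.0952. The 9 pairs without overlap have this value (0.106 after Benjamini-Hochberg adjustment over the 10 pairs) and so do not pass.

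**Figure D3:**
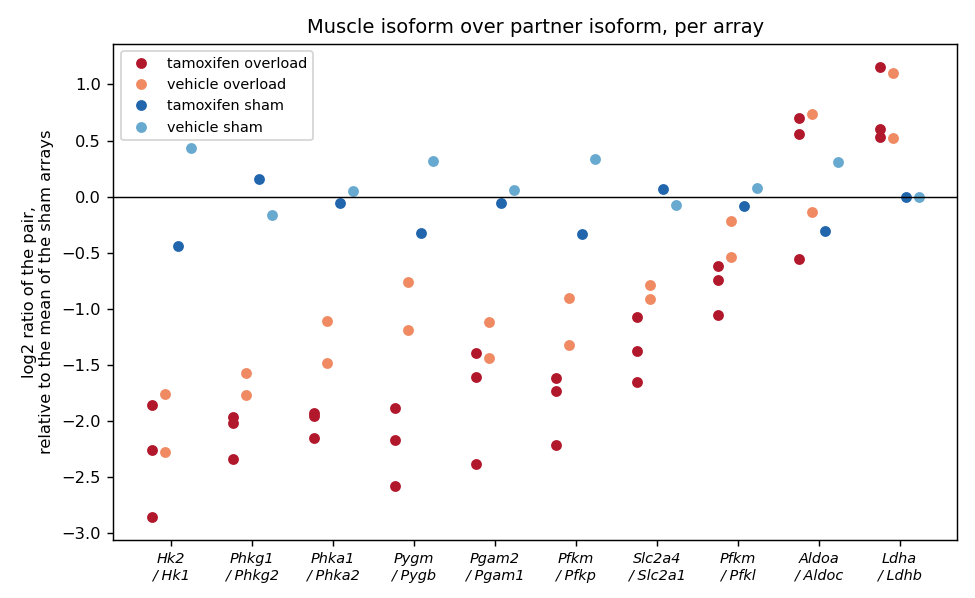
Log2 ratio of a muscle form to its partner on each array (y axis, relative to the mean of the sham arrays), with tamoxifen overload, vehicle overload, tamoxifen sham and vehicle sham from left to right within a pair. For 8 pairs all 5 overload arrays lie below both sham arrays, and for Ldha over Ldhb all lie above.

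By class, 8 of the 12 fitted muscle forms fell and none rose (median log2 difference -0.83). Of 10 widely expressed or non-muscle forms 2 fell and 3 rose (median -0.11), and of 11 genes not classed by isoform 9 fell (median -0.73). Over all genes 8.16% were lower and 14.7% higher. All 12 muscle forms had negative values. Of the genes not classed by isoform 81.8% were called lower, against 66.7% of the muscle forms. These unclassed genes include some described above as genes of muscle or fast fibres, such as Gys1 and Slc16a3. Their share thus does not show whether the fall reached beyond genes typical of muscle.

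Within each treatment, overload against its own sham array gave like values. With tamoxifen 16 genes fell and 0 rose, against 4.90% of all genes lower and 9.98% higher (14.9% in either direction). With vehicle 10 fell and 1, Hk1, rose, against 2.44% of all genes lower and 6.35% higher (8.79% in either direction). All 10 that fell with vehicle also fell with tamoxifen: Hk2, Pfkfb3, Ldhb, Slc16a3, Gpd1, Gpd2, Fbp2, Pygm, Phka1 and Phkg1. The 6 called with tamoxifen alone were Slc2a4, Pgk1, Ugp2, Pgm1, Gys1 and Ppp1r3c, and 30 of the 33 genes had the same sign in both. On each sham side stood 1 array, whose spread was taken from the overload groups. With vehicle the falls numbered 4 without tamoxifen overload replicate 3, where lower calls among all 18193 genes went from 444 to 232. They were also fewer without vehicle overload replicate 1 or 2, among the 33 and among all genes. The median over the 33 was then -0.56 and -0.69. Centred on the myofibre markers, tamoxifen gave 12 falls and 3 rises (Hk1, Pfkp and Pgam1), against 318 falls and 2837 rises among all 18193 genes. With vehicle Hk1 lost its call without vehicle overload replicate 2 (1.21).

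The difference between those 2 effects, tested as an interaction, passed for 0 of the 33 genes by limma, as for 0.00% of all genes. An unadjusted p under 0.05 was reached by 2 of the 33, against 5.61% of all genes. They were Ppp1r3c and Slc16a3. Without tamoxifen overload replicate 1, 2 or 3 the count was 4, 4 or 0, against 1216, 1131 or 1020 of all 18193 genes. Without vehicle overload replicate 1 or 2 the median interaction over the 33 was -0.10 or -0.12. Ppp1r3c differed by -1.25 ± 0.26 with tamoxifen and -0.21 ± 0.29 with vehicle, and Slc16a3 by -1.68 ± 0.19 and -0.95 ± 0.21. The adjusted p of their interactions was 0.792 and 0.81. The 6 genes called with tamoxifen alone are thus not shown to respond differently with vehicle.

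**Figure D4:**
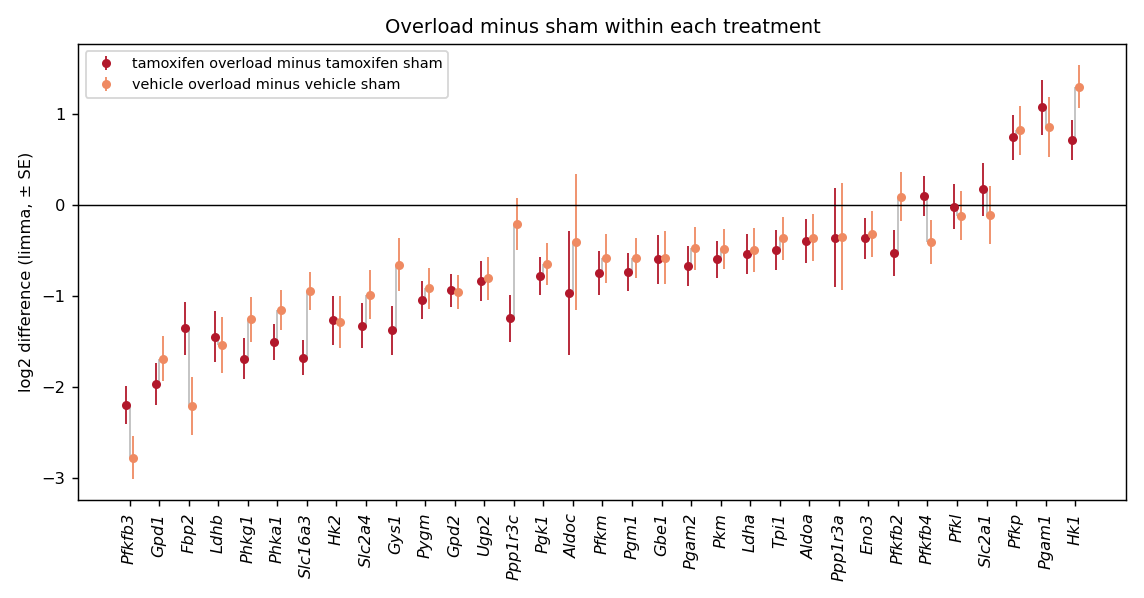
Log2 difference between overload and sham (y axis, limma estimate ± SE) for each of the 33 genes within tamoxifen and within vehicle treatment, in the order of the mean effect. Of the 33 genes 30 lie on the same side of 0 with both treatments, from Pfkfb3 (-2.20 with tamoxifen, -2.78 with vehicle) to Hk1 (0.71 with tamoxifen, 1.30 with vehicle).

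Tamoxifen against vehicle in overloaded muscle asked what the treatment changed under load. Limma called 0 of the 33 genes, as it did 0.00% of all genes, and the smallest adjusted p among the 33 was 0.395. Of the estimates 25 were negative, with a median of -0.21 over the 33 and 0.03 over all genes. The 3 tamoxifen arrays were all below the 2 vehicle arrays for 15 genes and above for 2, against 12.6% and 16.9% of all genes. An unadjusted p under 0.05 was reached by 6 of the 33 (10.6% of all genes): Phka1 (-0.52 ± 0.15), Slc16a3 (-0.50 ± 0.15), Gys1 (-0.61 ± 0.21), Phkg1 (-0.45 ± 0.18), Gpd2 (-0.33 ± 0.14) and Pfkp (0.48 ± 0.19). Without tamoxifen overload replicate 1 that count was 12, while among all 18193 genes it went from 1932 to 2677. Without vehicle overload replicate 2 it was lower among the 33 (median -0.21) and among all genes. As an example of the size, Phkg1 had 2782, 1930 and 2595 with tamoxifen and 3281 and 3355 with vehicle, and Fbp2, one of the 2 that lay higher, had 444, 461 and 657 with tamoxifen and 332 and 439 with vehicle.

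Cell markers differed between the same arrays. The myofibre markers summed to 390057, 331049 and 384334 with tamoxifen and to 418040 and 423382 with vehicle, and the macrophage markers to 34879, 50463 and 47618 with tamoxifen and to 31692 and 31294 with vehicle. The neutrophil markers summed to 1608, 2463 and 1050 with tamoxifen and to 388 and 662 with vehicle, and the satellite cell markers to 888, 667 and 1110 with tamoxifen and to 1438 and 2316 with vehicle. For these 4 sums the tamoxifen and vehicle overload arrays do not overlap, and for the other 5 lists they do. By single marker, 10 of 13 myofibre and 6 of 6 satellite cell markers lay lower on every tamoxifen array than on both vehicle arrays. Of the macrophage markers 5 of 14 lay higher and 1 lower, and of the neutrophil markers 3 of 3 higher. Among all genes 12.6% lay lower and 16.9% higher. No single marker was called. After centring on the myofibre markers the median was -0.02 over the 33 genes and 0.21 over all genes, and again 0 genes were called. The 2 sham arrays were compared by their values alone, and this difference was not tested. Tamoxifen sham was the lower of the 2 for 21 of the 33 genes and the higher for 12, with differences from -0.69 to 0.67.

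The neighbouring genes of the pathway were read from 5 further lists. Their counts stand beside the shares of all genes given above, 8.16% lower and 14.7% higher. Among other glycolytic genes 6 of 21 measured fell and 1 rose, with a median of -0.13. Slc2a3, the high-affinity transporter GLUT3, fell by 1.73 ± 0.21, and Bpgm, which makes 2,3-bisphosphoglycerate, by 1.20 ± 0.14. Slc2a12, a further glucose transporter, fell by 1.20 ± 0.19. The monocarboxylate carrier Slc16a7 passed as higher (2.22) but was above background on 2 arrays only. Among other glycogen genes 3 of 22 fell and 6 rose. Phkb, the remaining large subunit of phosphorylase kinase, fell by 1.20 ± 0.15 and Pgm2l1 by 1.21 ± 0.17. Ppp1r3d, a phosphatase targeting subunit, rose by 1.05 ± 0.20 and Pgm2, a phosphopentomutase, by 1.02 ± 0.23. The brain phosphorylase Pygb, given above, was among the 6.

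Downstream of pyruvate, 8 of 13 measured genes of mitochondrial entry fell and 1 rose (median -0.61), against 8.16% of all genes lower and 14.7% higher. Pdha1, the catalytic subunit of pyruvate dehydrogenase, fell by 0.96 ± 0.16. The kinases that switch this enzyme off moved apart. Pdk2 fell by 1.31 ± 0.16 and Pdk3 rose by 2.24 ± 0.27. Pdk3 had signals of 341, 510 and 383 in tamoxifen overload and 225 and 343 in vehicle overload, against 107 and 56.1 in tamoxifen and vehicle sham muscle. Pdpr, a regulator of the pyruvate dehydrogenase phosphatase, fell by 1.02 ± 0.17.

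Of 7 measured genes of the pentose phosphate pathway, the branch that makes NADPH and ribose, 2 rose and 1 fell, against 14.7% of all genes higher and 8.16% lower, so these counts lie close to those shares. Pgd (phosphogluconate dehydrogenase) rose by 1.19 ± 0.15 and Tkt (transketolase) by 0.86 ± 0.24, while Rpia fell by 0.72 ± 0.15. Among 19 measured regulators 8 fell and 1 rose, against 8.16% and 14.7% of all genes. Hif1a, the oxygen-sensitive activator of many glycolytic genes, rose by 1.50 ± 0.20. Tbc1d4, which controls GLUT4 traffic, fell by 1.56 ± 0.19, the glucose-sensing factor Mlxipl by 1.42 ± 0.23 and the AMP kinase subunit Prkaa2 by 1.27 ± 0.20. These lists were tested by limma in the same fit over all genes.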

How the data were processed

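RNA from whole plantaris was read on 7 one-colour Affymetrix arrays for the mouse genome. The authors deposited linear probe set intensities. In the files every array has the same mean, 500, once the lowest and highest 2% of probe sets are dropped, so whole-array scaling preceded deposit. The submitters' processing notes name Partek. How probes were summarised is not stated in the labels.

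Of 45101 probe sets, the 34945 that GEO's annotation pairs with exactly 1 symbol were used, as log2(signal + 1). This dropped 932 with more than 1 symbol, 9160 with no symbol and 64 controls. The brightest probe set on average stood for each of the 18193 genes. The background level (log2 5.8) is the 95th percentile of 75 olfactory, vomeronasal and taste receptor genes.

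Groups came from the titles. A model with a term per group and one for sex was fitted with limma 3.58.1 (R 4.3.3), with 2 residual and 5.95 prior degrees of freedom and variances moderated along intensity. Adjusted p is Benjamini-Hochberg over all genes, two-sided. The other probe sets of a gene were judged in a separate limma fit, adjusted over all 34945 probe sets with 1 symbol. In that fit the probe sets used for Pfkm, Pkm and Pgam2 did not pass (adjusted p = 0.0521, 0.0557 and 0.0576). The procedure was tested on simulated data. Isoform ratios were tested by exact permutation (scipy 1.17.1). Members, lists, isoform pairs and the rule for named genes were chosen with earlier results of these data known. That rule gives values on every array for members called with at least a 2-fold difference, isoform partners and rate-controlling genes, and up to 4 called genes of each pathway list. Lists covered other glycolytic and glycogen genes, pyruvate entry, the pentose phosphate pathway, regulators and markers of 9 cell types. Alternatives were other scalings, pseudocounts, filters, probe set rules and variance models, male arrays alone, no sex term and leaving out each array. Figures used Python 3.11.15 and matplotlib 3.10.9.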

Additional observations from a re-analysis of the deposited data

Results flagged for a closer look

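Pfkfb2, a fructose-2,6-bisphosphate enzyme found in heart and other tissues, had estimates of opposite sign with the 2 treatments. They were -0.53 ± 0.25 with tamoxifen and 0.09 ± 0.27 with vehicle, and neither was called. Each rests on 1 sham array, and the 2 sham arrays differ by 0.44 in log2. Its signals were 539, 401 and 460 with tamoxifen overload, all below the 674 of the tamoxifen sham array, and 515 and 530 with vehicle overload, both above the 496 of the vehicle sham array. The interaction was -0.62 ± 0.35 on the log2 scale and did not pass (limma adjusted p = 0.951).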

How the results depend on the processing

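No gene of the 33 that was called for overload against sham changed sign under any alternative. Of the 19 falls, 9 (Fbp2, Gpd1, Gpd2, Gys1, Ldhb, Pfkfb3, Phka1, Phkg1 and Slc16a3) were lost in 1 alternative only, the variance model without the intensity trend. That model gave 0 falls and 0 rises for overload against sham and within vehicle, and 0 falls within tamoxifen (22, 12 and 16 genes at an unadjusted p under 0.05). It called 0 of all 18193 genes in each of these comparisons (5234, 3316 and 4123 at an unadjusted p under 0.05). Leaving out each array gave 9 to 21 falls for overload against sham, 3 to 12 falls and 0 to 2 rises within vehicle, and 0 to 2 rises within tamoxifen. The number of calls among all genes varied with the array left out as well. Quantile normalization ended the calls of Pfkm, Pfkp, Pkm, Pgam2, Pgm1 and Ppp1r3c (-0.39, 0.58, -0.27, -0.32, -0.45 and -0.48). Median centring left 1 rise for overload against sham and moved the median of all genes from 0.07 to -0.22. Male arrays alone gave 4 falls within vehicle, and averaging all probe sets of a gene gave 0 rises there. Within tamoxifen the rises numbered 2 without the sex term, 1 with male arrays alone, 1 with only genes above background and 3 with centring on the myofibre markers (chosen after seeing the data). Leaving out a female array gives nearly the fit of male arrays alone. The cause of these changes was not tested, beyond the fewer arrays that some settings hold. Of 36 other probe sets above background, 31 had the sign of the one used and 5 the opposite, none of the 5 called. No paired analysis was possible because the titles give replicate numbers in 1 group only. With 7 arrays the precision is limited by their number, and overload against sham cannot be estimated without either sham array.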
